A study of Mus musculus with 7 samples.

Results

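Ancient L1 loci are the fossil copies of the LINE-1 retrotransposon that RepeatMasker names L1M (followed by a capital letter or a number), L1P or HAL1. They were taken by name from the table of read counts per RepeatMasker locus, and the young mouse families, named L1Md, were left out. The rule found 233351 loci of 3494995 in the table (6.68%), under 91 element names. A locus was called inside a gene where it overlapped, by at least 1 base, the span of a gene in the RefSeq gene table. By that rule 90083 loci (38.6%) lay inside gene spans, against 36.7% of the loci of every class. The libraries were made from whole testes of embryonic day 14.5 (E14.5) C57BL/6 mice, 1 pair of testes per library. Of these, 3 libraries were labelled wild-type and 4 were labelled homozygous for the Glis3 zf5 allele (Glis3 mutant), a germline deletion that removes an exon with intron sequence on both sides of it and disrupts DNA binding by the zinc-finger transcription factor GLIS3. Ribosomal RNA was depleted, no poly-A selection was made and strand was not kept, so unspliced transcripts were read and a locus cannot be assigned to its own strand or the opposite one. The comparison of the genotypes asks whether retrotransposon RNA changes when GLIS3 is lost.

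A full-length L1 carries an internal promoter and a pair of open reading frames, and it moves by copying its RNA into DNA at a new site. The L1M families stopped moving long ago, many of them before the orders of placental mammals parted, and their copies are short, mutated and usually cut off at the 5′ end. The few loci named L1P carry names first given to families of primates. HAL1 elements are a related line that lost the second reading frame, which encodes the reverse transcriptase. Because their copies have diverged so far, most reads from them can be placed at 1 site. RNA from such a locus is mostly part of a longer transcript that runs through it, as an intron, as the last exon of a messenger RNA or as an exon of a long non-coding RNA. Whole-testis RNA mixes germ cells, Sertoli cells, Leydig cells and other somatic cells, so fewer cells of a type and less RNA per cell cannot be told apart.

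The letters of 6 loci that the results below turn on are given here to show how such a fossil looks inside a transcript. All lie in exons of non-coding transcripts of GENCODE M21, and the sequence is that of the GRCm38 (mm10) transcript, written 5′ to 3′ along the element's own strand. The L1MB3 and L1M4 fragments belong to 5430414B19Rik, a transcript within an intron of Ngly1. The L1MB8 and HAL1 fragments are both part of Gm13110, the L1MC5a fragment is part of 5830444B04Rik, and the L1MEg fragment is the part of its locus inside an exon of the long intergenic RNA Gm26825.
L1MB3 chr14:16271129-16271428 (minus strand): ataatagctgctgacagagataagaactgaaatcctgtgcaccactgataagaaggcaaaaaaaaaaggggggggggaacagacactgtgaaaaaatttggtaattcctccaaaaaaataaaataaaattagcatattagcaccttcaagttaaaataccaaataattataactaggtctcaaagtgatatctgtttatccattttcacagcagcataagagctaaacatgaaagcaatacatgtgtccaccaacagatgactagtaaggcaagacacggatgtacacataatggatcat
L1M4 chr14:16271613-16271726 (minus strand): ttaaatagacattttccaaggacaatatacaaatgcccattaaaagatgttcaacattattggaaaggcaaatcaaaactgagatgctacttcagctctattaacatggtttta
L1MB8 chr4:154646525-154646658 (plus strand): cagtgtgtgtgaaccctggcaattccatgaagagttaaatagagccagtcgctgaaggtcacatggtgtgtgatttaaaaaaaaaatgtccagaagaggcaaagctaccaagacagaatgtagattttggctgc
HAL1 chr4:154647197-154647486 (minus strand): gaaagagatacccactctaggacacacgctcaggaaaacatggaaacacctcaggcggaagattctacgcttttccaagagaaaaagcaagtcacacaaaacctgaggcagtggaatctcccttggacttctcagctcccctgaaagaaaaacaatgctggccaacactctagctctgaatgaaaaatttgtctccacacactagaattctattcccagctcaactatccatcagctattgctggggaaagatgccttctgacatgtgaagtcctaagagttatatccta
L1MC5a chr4:155414721-155414878 (minus strand): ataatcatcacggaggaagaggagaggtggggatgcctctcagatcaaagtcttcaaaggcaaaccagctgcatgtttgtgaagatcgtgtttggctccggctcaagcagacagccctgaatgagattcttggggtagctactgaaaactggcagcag
L1MEg chr5:5781530-5781571 (minus strand): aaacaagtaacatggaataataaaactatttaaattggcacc
The G and C content of these stretches ran from 26.2% in L1MEg to 50.0% in L1MC5a, and none held more than 3 CpG pairs. The L1MB3 stretch is the first 300 bases of a longer locus, and the letters of the intronic loci are not shown. Of 32851 RefSeq promoter windows (each 250 bases before to 50 after a gene's start), 402 (1.22%) overlapped an ancient L1 locus. Among the loci named below, only the L1M3 locus in Shisa5 did so.

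The table held between 3454317 and 4670830 uniquely placed reads per library, and ancient L1 loci took between 236940 and 320258 of them. Glis3 itself was read at 7.63, 6.89 and 2.91 FPKM in wild-type replicates 1 to 3 and at 3.86, 3.26, 2.9 and 2.66 FPKM in the mutant replicates. The library labelled wild-type replicate 3 therefore lay within the mutant range for the targeted gene, and for calls at single loci that turn on this library the adjusted p without it is given below. All 8 germ cell markers, Ddx4 and Dazl among them, were detected, and their summed FPKM reached from 596 to 1396 in wild-type libraries, with 596 in wild-type replicate 3, and from 481 to 648 in mutant libraries. The 8 log2 fold changes were all negative, and none passed the limma test. The 6 fetal Leydig cell markers summed to between 1615 and 2679 FPKM in wild-type and between 2519 and 3098 in mutant libraries. Sertoli, interstitial and endothelial markers were present in every library, and no marker found in the table was at 0 in every library. Skeletal muscle markers were uneven, summing to 1.37 to 18.3 FPKM in wild-type and 1.3 to 34.2 in mutant libraries. Blood markers summed to 1748 to 3780 and 943 to 2700 FPKM, and adrenal cortex markers to 6.28 to 12.3 and 10.9 to 18.4 FPKM. The part of cell makeup in the results on ancient L1 loci was not tested. No pair of libraries of a group differed by as little as sampling noise.

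Nearly all of the reads of ancient L1 loci came from within genes. Loci inside gene spans held 85.8% of them, at 10.2 reads per kb per library, and loci outside held 14.2%, at 1.02 reads per kb per library. By the GENCODE class that covers most of a locus, 105445 intronic loci held 64.3% of the reads at 6.48 reads per kb per library. A further 1335 loci in untranslated parts of messenger RNAs held 21.4% at 193 reads per kb, and 2906 loci in exons of non-coding transcripts held 5.87% at 22.8 reads per kb. Outside every GENCODE gene, 123643 loci held 7.79% of the reads at 0.648 reads per kb. Among loci within spans of genes on 1 strand, those in the orientation of the gene were read at 10.9 and those opposite to it at 9.86 reads per kb per library. The opposite orientation was the more common, with 59267 loci against 29045.

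Reads at most of these loci were few. Of the 233351 loci, 102768 (44.0%) held a read in any library and 17661 held one in every library. To be tested, a locus needed 1 read per library on average, which 34005 loci reached (14.6%, against 13.3% of all classes). They held 92.2% of the ancient L1 reads. Their median was 2.71 reads per library, 4467 reached a mean of 10 and 191 a mean of 100. The median length of an ancient L1 locus was 198 bases, and 247 bases among those tested, against 742 bases for the L1Md families.

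The share of all reads in ancient L1 loci differed by less than the spread between libraries. It was 6.857%, 6.587% and 6.499% in wild-type testes and 7.024%, 7.341%, 6.352% and 6.606% in mutant testes, or 6.65% ± 0.186 (SD, n = 3) against 6.83% ± 0.439 (SD, n = 4), a difference of 0.183 percentage points. With 1 library left out the difference ran from 0.0133 (without mutant replicate 2) to 0.343 (without mutant replicate 3) and was 0.109 without wild-type replicate 3, and it was 0.0651 without the 20 most read loci and 0.461 on the TMM effective library size. The groups overlapped, since mutant replicate 3 was the lowest of the 7 libraries and mutant replicate 2 the highest. For loci outside gene spans alone the share was 0.907% ± 0.049 (SD, n = 3) in wild-type and 1.0% ± 0.0439 (SD, n = 4) in mutant testes. Here the groups did not overlap, with 0.8521% to 0.9461% in wild-type and 0.9686% to 1.068% in mutant libraries. The share of ancient L1 reads that fell inside spans was 86.4% ± 0.471 (SD, n = 3) and 85.3% ± 0.876 (SD, n = 4), and mutant replicate 2, at 86.58%, lay among the wild-type values. Reads of every class fell inside spans at 83.5% in wild-type and 81.9% in mutant testes, and those of L1Md elements at 63.4% and 54.1%.

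**Figure D1:**
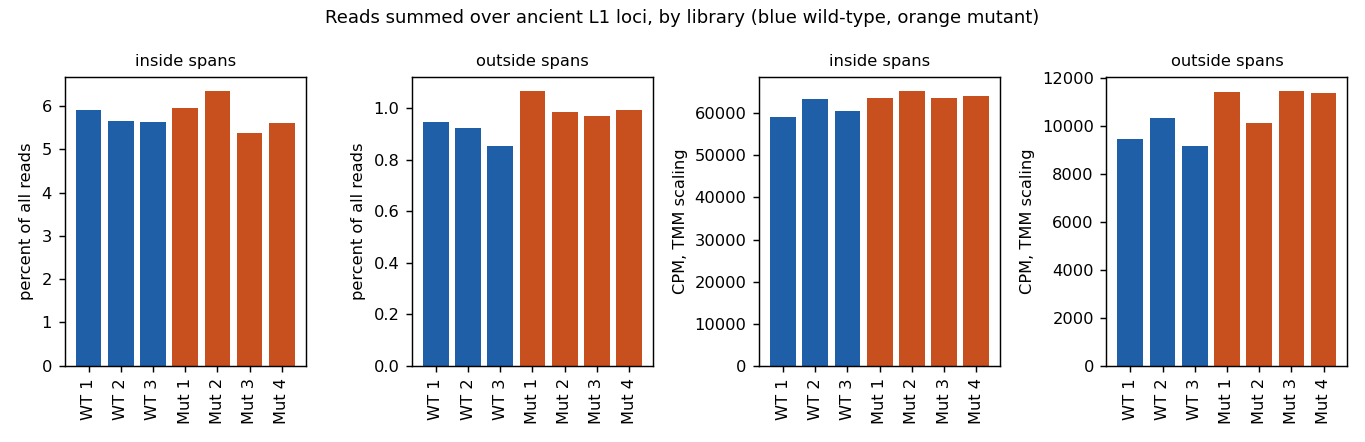
Reads summed over all ancient L1 loci in each library, as percent of all reads of the table (left pair) and as CPM, reads scaled to the TMM effective library size (right pair), inside and outside gene spans. Blue bars are the 3 wild-type and orange bars the 4 mutant libraries. The percent outside spans does not overlap between the genotypes, while the CPM outside spans does, and the reverse is seen inside spans.

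How the libraries are scaled decides which of these sums separates the genotypes. A single locus of another class, an MMVL30-int element, held between 0.072% and 7.02% of all reads of a library, and TMM scaling discounts such a locus. On the TMM scale, ancient L1 loci summed to 70687 CPM ± 2679 (SD, n = 3) in wild-type and 75294 CPM ± 223 (SD, n = 4) in mutant testes, and every mutant library exceeded every wild-type library. The sums inside spans also did not overlap, at 61041 and 64209 CPM. Outside spans they were 9646 CPM ± 608 and 11085 CPM ± 641 (SD, n = 3 and 4), and mutant replicate 2, at 10126 CPM, was below wild-type replicate 2, at 10326 CPM. Reads at the most abundant locus, in Tceal9, made up 3.36% to 5.469% of the ancient L1 reads of a library.

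Locus by locus, few ancient L1 elements passed the test. With edgeR's quasi-likelihood test and an adjusted p under 0.1 over all 464695 loci tested, 4 of 34005 ancient L1 loci were higher in Glis3 mutant testes (0.0118%) and 20 were lower (0.0588%). Over all classes 0.0217% were higher and 0.0628% were lower, so the shares among ancient L1 loci were no greater than those of the whole table. An unadjusted p under 0.05 was reached by 1562 loci (4.59%, against 4.79% of all loci). In 1094 ancient L1 loci every mutant library exceeded every wild-type library, and in 942 the reverse held, shares of a few percent as in all classes (2.97% and 3.03%). The median log2 fold change was 0.03, with quartiles of -0.44 and 0.46, and 51.6% were positive, against 50.2% over all classes. The 24 loci that passed were spread over 12 chromosomes. DESeq2 called 3 of the 24, the loci in Hao2 and Mid1 (L1MB8) and the HAL1 locus of Gm13110 described below. By GENCODE class 11 were intronic, 7 lay outside genes, 3 in non-coding exons and 3 in untranslated exon parts. The loci tested in these classes were 29433, 2512, 1304 and 740.

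**Figure D2:**
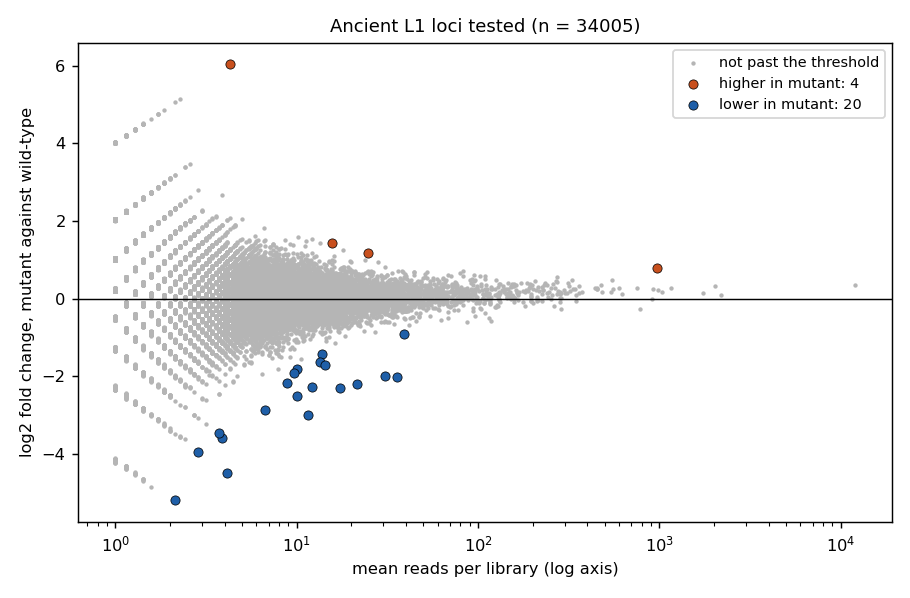
Log2 fold change (mutant against wild-type, edgeR) of each of the 34005 ancient L1 loci tested, against its mean reads per library on a log axis. Grey points did not pass, orange points are the 4 loci that rose and blue points the 20 that fell. The loci that fell had means of 2.14 to 39.3 reads, and those that rose 4.29 to 967 reads.

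Only 8 of the 24 had genotype groups that did not overlap, 6 lower and 2 higher in mutants. In the other 14 lower loci the groups overlapped, in 13 of them only through the library labelled wild-type replicate 3. Of the 20 lower loci, 10 lay inside and 10 outside RefSeq gene spans. Of the 4 higher loci, 3 lay outside them. Inside spans 29819 ancient L1 loci were tested and outside them 4186, so calls were more frequent outside per locus tested. No share by place was taken over the loci of all classes, so this is not read as particular to ancient L1. Of the 8 loci in separate groups, all but the L1MA7 in Mid1 were also called without wild-type replicate 3.

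**Figure D3:**
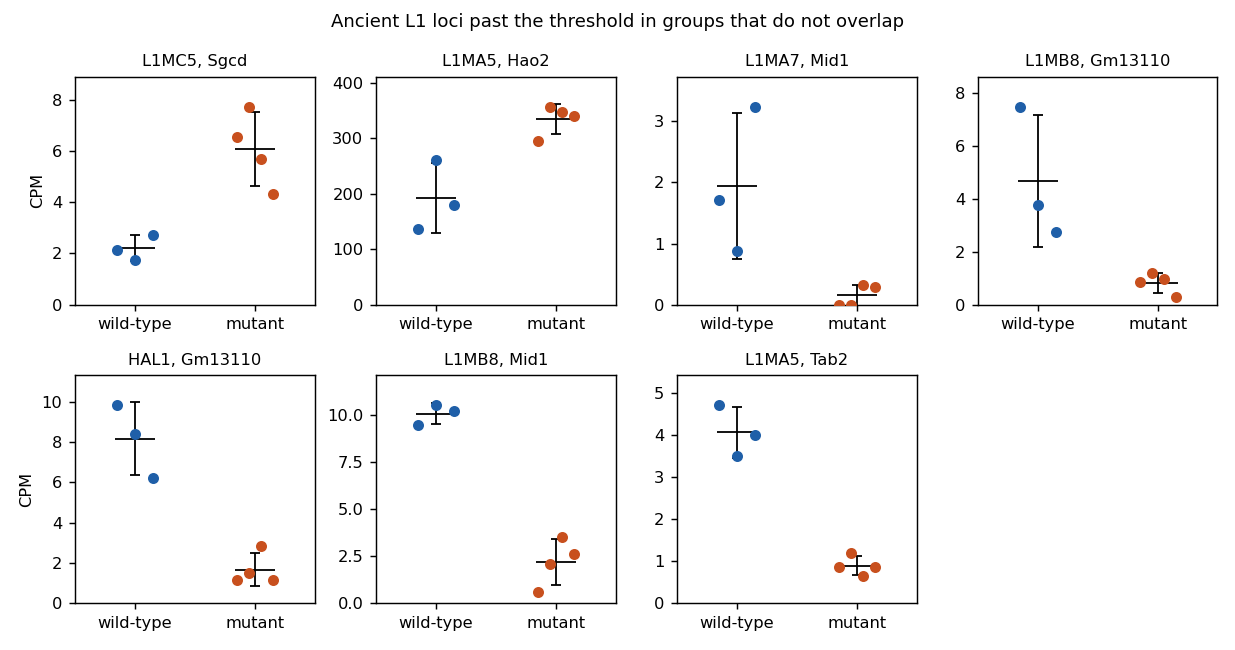
CPM per library, wild-type in blue and mutant in orange, of 7 of the ancient L1 loci that passed the test in groups that do not overlap. The horizontal line is the group mean and the bar is ± 1 SD (n = 3 and 4), and each panel starts at 0. The mutant libraries lie above the wild-type libraries in the Sgcd and Hao2 panels and below them in the other 5.

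The fall with the smallest adjusted p among these 8 was at the end of Mid1, a chromosome X gene for a microtubule-associated ubiquitin ligase. The L1MB8 locus at chrX:169982616-169982757, 142 bases in an intron of Mid1, held 44, 36 and 41 reads in wild-type and 2, 7, 11 and 9 reads in mutant libraries. It also overlaps a second GENCODE gene, Gm15726, and the counts do not part the genes. The wild-type values, wild-type replicate 3 included, were close to each other and far above the mutants. In CPM the lowest wild-type value, 9.42, stood against 0.57, 2.08, 3.49 and 2.59 in mutants, a log2 fold change of -2.20 (adjusted p = 2.04e-08, edgeR). The call held under all 13 alternatives, with adjusted p-values from 7.62e-09 to 0.00563. A second locus in the same gene, the L1MA7 at chrX:169977522-169977798, held 8, 3 and 13 reads against 0, 0, 1 and 1. It fell by 3.46 on the log2 scale (adjusted p = 0.0362), and that call was lost without wild-type replicate 1 (0.101) or 3 (0.599) and without mutant replicate 1 (0.256) or 2 (0.227), with no filter on low counts (0.119) and with the replicate number as a block (0.241).

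No other ancient L1 locus of Mid1 passed. The gene held 32, of which 11 were tested. The other 9 had log2 fold changes from -0.51 to 2.05, 8 of them positive. All 9 lie before both called loci, the last of them at chrX:169924054-169924313, so they do not cover the end of the gene. Mid1 itself was at 0.878 FPKM ± 0.0154 (SD, n = 3) in wild-type and 0.989 FPKM ± 0.351 (SD, n = 4) in mutant testes. The L1MA7 locus also lies inside G530011O06Rik, a gene on the opposite strand of Mid1. Its FPKM were 0.859, 0.699 and 0.89 in wild-type and 0.0407, 0.103, 0.0793 and 0.0795 in mutant testes. All mutant values of G530011O06Rik were far below all wild-type values, but its mean was under the minimum of 0.5 FPKM and it was not tested. Since strand was not kept, reads from the overlapping genes cannot be told apart.

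Both tested ancient L1 loci of Gm13110 on chromosome 4, a processed transcript outside the RefSeq spans, were lower in mutants. The HAL1 locus whose letters are shown above held 46, 29 and 25 reads in wild-type and 4, 5, 9 and 4 reads in mutant libraries. It fell from 8.17 CPM ± 1.82 (SD, n = 3) to 1.66 CPM ± 0.812 (SD, n = 4), a log2 fold change of -2.30 (adjusted p = 1.86e-07), and passed under all 13 alternatives. Wild-type replicate 3 was the lowest of its group and still well above every mutant library. The L1MB8 locus of the same transcript held 35, 13 and 11 reads against 3, 4, 3 and 1, a log2 fold change of -2.50 (adjusted p = 0.000147). Here wild-type replicate 1 stood above the other 2, and without it the adjusted p was 0.458, and 0.331 with DESeq2 on all libraries. The HAL1 fragment lies in the orientation of Gm13110, and the L1MB8 fragment lies in the opposite one.

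Of a pair of neighbouring L1MA5 fragments in an intron of Tab2, which encodes an adaptor of the TAK1 kinase, 1 passed and the other did not, and the difference between them was not tested. The L1MA5 at chr10:7937499-7937664 held 22, 12 and 16 reads in wild-type and 3, 4, 2 and 3 in mutant libraries. It fell from 4.06 CPM ± 0.614 (SD, n = 3) to 0.886 CPM ± 0.229 (SD, n = 4), a log2 fold change of -2.16 (adjusted p = 0.00736, 0.18 without wild-type replicate 1 and 0.704 with DESeq2). The L1MA5 just before it, at chr10:7937344-7937480, held 8, 5 and 7 reads against 8, 5, 10 and 4, and its groups overlapped. The 7 other tested loci of Tab2 had log2 fold changes between -0.31 and 0.38. Tab2 itself had a log2 fold change of -0.05, with overlapping groups.

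The rise with the most reads was in Hao2, which encodes a peroxisomal 2-hydroxy acid oxidase. The L1MA5 at chr3:98874942-98875189, 248 bases long, lies wholly within the 3′ untranslated region. It held 641, 897 and 718 reads in wild-type and 1037, 1200, 1094 and 1179 reads in mutant libraries, and every mutant value was above every wild-type value. In CPM this was 192 ± 62.8 (SD, n = 3) against 335 ± 27.1 (SD, n = 4), a log2 fold change of 0.80 (adjusted p = 0.00012). Hao2 messenger RNA was at 28.9 FPKM ± 4.95 (SD, n = 3) in wild-type and at 45.7 FPKM ± 4.09 (SD, n = 4) in mutant testes. The groups of the gene did not overlap either, with a log2 fold change of 0.66 ± 0.12 (SE), yet it did not pass over all genes (adjusted p = 0.133, limma). The locus was called under all alternatives but the one that kept only loci with a mean of 10 reads (adjusted p = 0.108).

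A second rise was in Sgcd, the gene of delta-sarcoglycan of the dystrophin complex, in introns beyond its RefSeq span. The L1MC5 at chr11:47505171-47505516 held 10, 6 and 11 reads in wild-type and 23, 26, 18 and 15 in mutant libraries, and the lowest mutant value was above the highest wild-type value. It rose from 2.21 CPM ± 0.504 (SD, n = 3) to 6.08 CPM ± 1.44 (SD, n = 4), a log2 fold change of 1.44 (adjusted p = 0.0542). The call was lost without wild-type replicate 1 (0.331) or 2 (0.658) and without mutant replicate 1 (0.198) or 2 (0.483), with no filter on low counts (0.158), among loci with a mean of at least 10 reads (0.235) and with DESeq2 (1.0). An L1MB3 of the same gene, at chr11:47398574-47400882, held 11, 9 and 14 reads against 34, 23, 18 and 17, and missed the threshold (log2 fold change 1.27, adjusted p = 0.102). It passed without wild-type replicate 3 (0.098), mutant replicate 3 (0.0978) or mutant replicate 4 (0.0788). Sgcd held 97 ancient L1 loci, and of the 62 tested 47 had a positive and 15 a negative log2 fold change, with a median of 0.46. In 7 of them all mutant values exceeded all wild-type values, and in none was the reverse seen, against 2.97% and 3.03% of the loci of every class. The L1MC5 and the L1MB3, for which the gene was picked, are among the 7. Loci of 1 gene in the same libraries are not independent, so these counts are a description only.

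Among loci in separate groups that did not pass, those with the smallest unadjusted p on the higher side included both fragments of 5430414B19Rik inside Ngly1, the gene of a cytosolic enzyme that removes sugar chains from misfolded glycoproteins. The L1M4 fragment held 9, 6 and 5 reads in wild-type and 20, 25, 8 and 12 in mutant libraries (log2 fold change 1.53, adjusted p = 0.109). The longer L1MB3 locus, at chr14:16270840-16271428, held 83, 62 and 57 reads against 118, 98, 72 and 85 (log2 fold change 0.73, adjusted p = 0.17). Without mutant replicate 3 both passed (0.0351 and 0.0775), and without mutant replicate 4 the first did (0.0987). On the scale of CPM all mutants were above all wild-types at both. All 5 tested ancient L1 loci of Ngly1 had positive log2 fold changes, from 0.15 to 1.53, while Ngly1 itself was at 24.3 FPKM ± 3.52 (SD, n = 3) and 26.4 FPKM ± 1.68 (SD, n = 4). An L1M3 at chr18:6926504-6927133 was at 0 in all wild-type libraries and held 7, 1, 3 and 5 reads in mutants, at least 4.73-fold higher on a floor of 3 reads over the group, with an adjusted p of 0.111, and 0.0669 without mutant replicate 2.

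In most of the other falls wild-type replicates 1 and 2 lay above every mutant library and the library labelled wild-type replicate 3 did not. The smallest adjusted p of all ancient L1 loci belonged to this kind. An L1MD2 at chrX:161334341-161334573, mostly in an intron of Gm15262, held 97, 94 and 6 reads in wild-type and 15, 10, 14 and 15 in mutant libraries (log2 fold change -2.03, adjusted p = 2.51e-11). A second L1MD2 of Gm15262, at chrX:161332864-161333075, held 79, 81 and 7 reads against 24, 7, 7 and 9 (log2 fold change -1.99, adjusted p = 1.18e-09). In CPM, wild-type replicate 3 was below every mutant library at both, so these calls rest on the other wild-type libraries. Without it the adjusted p was 9.9e-19 for the first and 5.73e-16 for the second. These loci are grouped here by a low wild-type replicate 3, so a smaller adjusted p without it follows from the grouping and adds no support. In some other falls of the kind wild-type replicate 2 held most of the wild-type reads. At the Tfcp2l1 locus below, wild-type replicates 1 to 3 stood at 3.85, 11.6 and 2.5 CPM, and the highest mutant library at 3.42 CPM.

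Genes of the germ line were among the hosts of such loci. An L1MA7 at chr1:166236113-166236270 in an intron of Mael, a component of the piRNA pathway that silences retrotransposons in germ cells, held 15, 24 and 2 reads in wild-type and 4, 0, 1 and 1 in mutant libraries (log2 fold change -2.86, adjusted p = 0.00125). Mael messenger RNA was at 67.1, 128.0 and 18.8 FPKM against 30.6, 18.2, 15.7 and 12.9 FPKM, and wild-type replicate 3 lay inside the mutant range at the locus and in the messenger RNA. An L1ME4a in 4930447C04Rik, which encodes a protein of the synaptonemal complex, held 84, 78 and 11 reads against 16, 35, 30 and 21 (log2 fold change -0.92, adjusted p = 0.0973). An L1M4 in the untranslated end of Tfcp2l1, a transcription factor of pluripotent cells, held 18, 40 and 10 reads against 12, 4, 6 and 7 (log2 fold change -1.41, adjusted p = 0.0843). In Ddx4, a germ cell RNA helicase, an L1M5 at chr13:112624502-112624629 held 39, 19 and 18 reads against 11, 10, 9 and 8, with groups that did not overlap, and did not pass (log2 fold change -1.13, adjusted p = 0.339). Without wild-type replicate 3 the adjusted p was 7.52e-06 in Mael, 1.76e-05 in 4930447C04Rik and 0.00253 in Tfcp2l1. For the reason given above these smaller values add no support. The summed germ cell markers are given above, and their part in these loci was not tested.

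Further loci of the kind lay in genes of other functions. An L1MB8 in an intron of Ntm, a neural cell adhesion gene, held 22, 45 and 2 reads against 4, 5, 5 and 2 (log2 fold change -2.27, adjusted p = 6.55e-05), while the log2 fold change of Ntm was 0.23. The L1M3 in Shisa5, whose groups overlapped through wild-type replicate 1 rather than 3, held 2, 20 and 3 reads against 2, 0, 0 and 0, with most of its reads in wild-type replicate 2 (adjusted p = 0.015). The L1MC5a shown above, in 5830444B04Rik and within Cfap74, held 35, 15 and 3 reads against 2, 3, 5 and 5 (log2 fold change -1.92, adjusted p = 0.0201). An L1MB8 in Ica1 held 11, 4 and 0 reads and was at 0 in every mutant library, at least 5.27-fold lower on the floor of 3 reads over the group. Without wild-type replicate 3 the adjusted p was 1.32e-08 for the Ntm locus, 0.00163 for the Shisa5 locus, 0.000108 for the L1MC5a and 0.00665 for the Ica1 locus. At all but the Shisa5 locus the smaller values follow from a low wild-type replicate 3 and add no support.

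The 2 other rises had groups that overlapped. An L1MB4 on chromosome 19, at chr19:35302919-35303610 outside genes, held no read in wild-type libraries and 29, 0, 0 and 1 in mutants, all but 1 of them in mutant replicate 1 (adjusted p = 0.000206). An L1MD2 at chr3:69768806-69769645, also outside genes, held 1, 24 and 23 reads against 22, 37, 35 and 31 (log2 fold change 1.18, adjusted p = 0.0462). There wild-type replicate 1 was far below all the other libraries.

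**Figure D4:**
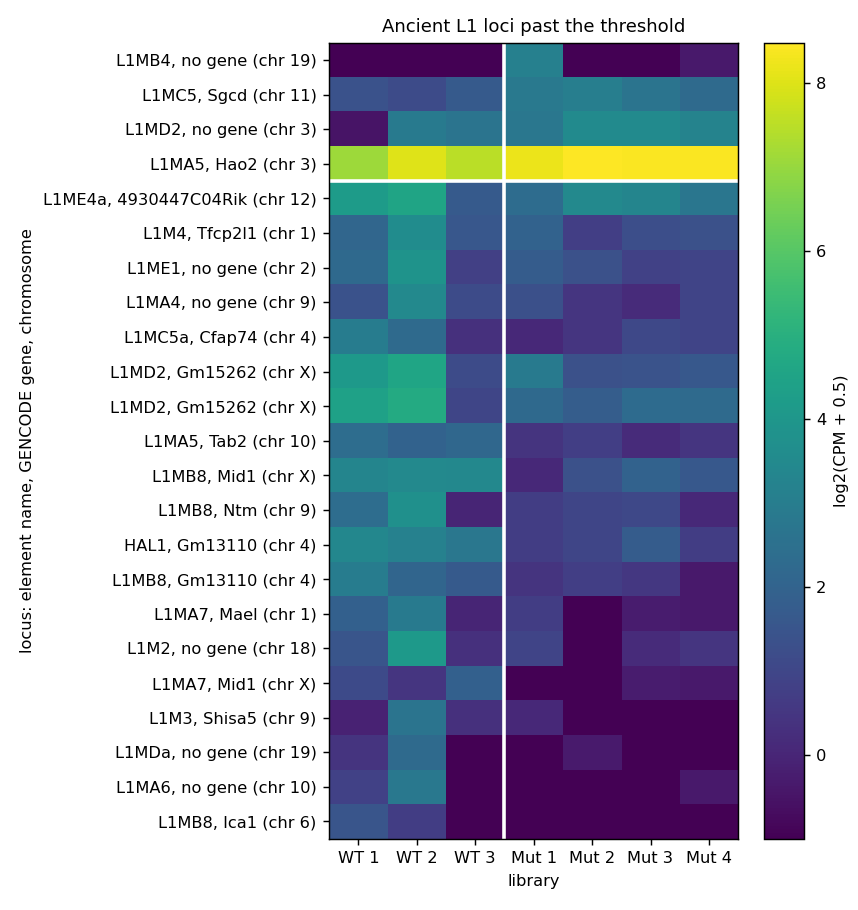
Log2(CPM + 0.5) of 23 of the ancient L1 loci that passed the test, 1 row per locus and 1 column per library. The horizontal white line parts the 4 that rose from those that fell, and the vertical white line parts wild-type from mutant libraries. In 13 of the rows below the line the column of wild-type replicate 3 lies in or under the mutant range.

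Without the library labelled wild-type replicate 3, 8 ancient L1 loci were higher (0.0234%) and 34 lower (0.0995%), and 23 of the 24 loci called with all libraries were still called. Over all classes 0.022% were then higher and 0.119% lower, so the count of lower calls was greater in the whole table too. Wild-type replicate 3 itself lay above every mutant library in 7 of the 34, within the mutant range in 19 and below it in 8. Loci that passed only then included an L1MB8 in Stk31, a germ cell kinase-like gene (47, 47 and 22 reads against 14, 18, 19 and 21), and an L1MB7 in Jak2, a cytokine receptor kinase (8, 8 and 4 reads against 0, 0, 1 and 1). Without wild-type replicate 2, 6 loci were higher and 6 lower (0.0174% each, against 0.0152% and 0.0142% over all classes). Only 8 of the 24 loci were still called then. Leaving out wild-type replicate 1 gave 3 higher and 14 lower loci (0.00903% and 0.0421%, against 0.0242% and 0.0516%), and 16 of the 24 were kept.

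Summed over all loci of an element name, no ancient L1 family passed the test. Of the 91 names 90 reached a mean of 10 reads, and 0 were called in either direction (edgeR, adjusted p under 0.1), against 0.12% of names of all classes called higher, which is RLTR19 alone, and 0.0% lower. An unadjusted p under 0.05 was reached by 22 of the 90, all of them higher in mutants, against 134 of the 831 names of all classes, and the smallest adjusted p was 0.117. DESeq2 also called 0. Positive log2 fold changes were seen for 80 names, over a range from -0.22 to 0.33. Their median of 0.08 was that of the names of all classes, so this shift was not particular to ancient L1. The 8 names with the most reads, L1M4, L1M5, L1MB7, L1M2, L1MC4, L1MB8, L1MEg and L1ME1, held 37.7% of the reads. Of these, L1M4 had the greatest log2 fold change, 0.19, with 6752 CPM ± 580 (SD, n = 3) in wild-type and 7689 CPM ± 250 (SD, n = 4) in mutants (adjusted p = 0.208). The most read locus of the name, in Tceal9, went from a mean of 2885 CPM to 3716 CPM, and the median log2 fold change of the 2127 tested L1M4 loci was -0.01. L1MB8 had the lowest, -0.01, at 2168 CPM ± 95.6 and 2159 CPM ± 28.6 (adjusted p = 0.936).

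Splitting each name into its loci inside and outside gene spans gave a shift on the outside. Names of all classes shifted by nearly as much, so it was not particular to ancient L1. Of 170 such sums, 12 (7.06%) were called higher in mutants and 0 lower, against 5.26% higher and 0.065% lower among the sums of all classes. Outside spans the median log2 fold change of 81 names was 0.24, with 79 positive, and over the 736 names of all classes it was 0.21. Inside spans the median of 89 names was 0.05, with 73 positive, and over 803 names of all classes it was 0.03. Scaling by library size alone left medians of 0.20 outside and 0.02 inside, and 2 calls, both outside. No direction of these medians turned under the scalings tried.

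The called sums outside spans were L1MA6, L1M4, L1MA8, L1M4a1, L1ME3, L1MDa and L1MA9. The smallest adjusted p was that of L1MA6, with 210, 243 and 216 CPM in wild-type and 275, 263, 293 and 308 CPM in mutant libraries, a log2 fold change of 0.35 (adjusted p = 0.0557). All 4 mutants were above all 3 wild-types. The most read was L1M4 outside spans, with 432, 463 and 407 CPM against 496, 497, 518 and 534 CPM, a log2 fold change of 0.24 (adjusted p = 0.0721). L1M4a1 outside spans rose by 0.56 on the log2 scale from 11.5 CPM ± 1.43 (SD, n = 3), with only 372 loci behind it. The called sums inside spans were L1ME4c, HAL1_SS, L1MA5, L1MEd and L1MD. HAL1_SS, from 32 loci, rose from 72.4 CPM ± 3.43 (SD, n = 3) to 91.4 CPM ± 2.11 (SD, n = 4), a log2 fold change of 0.34 (adjusted p = 0.067), while the median log2 fold change of its 6 tested loci was -0.46. L1MA5 inside spans, which holds the Hao2 locus, rose by 0.22 (adjusted p = 0.0674). In all 12 the genotype groups did not overlap. All adjusted p-values lay between 0.0557 and 0.0996, and without wild-type replicate 1 or 3, or mutant replicate 1, 3 or 4, no sum passed, whereas 33 passed without wild-type replicate 2 and 25 without mutant replicate 2, when 13.3% and 11.6% of the sums of all classes passed.

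**Figure D5:**
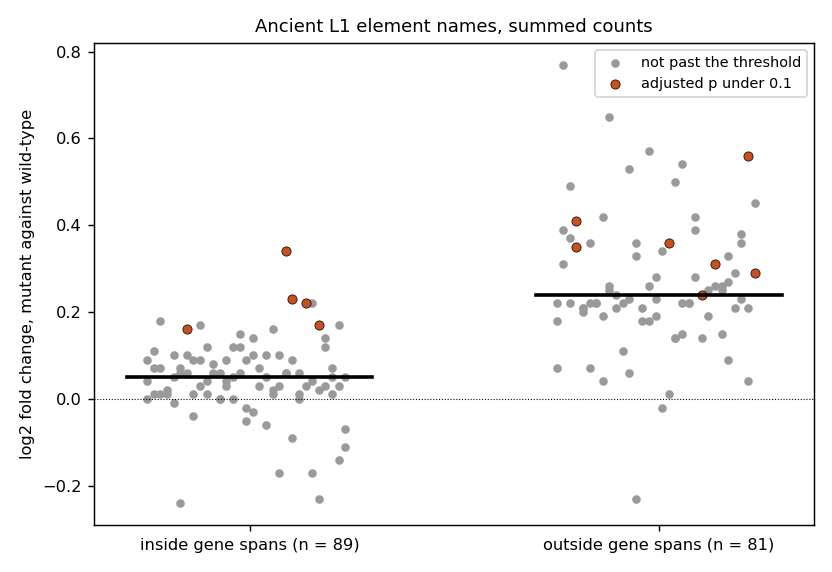
Log2 fold change (mutant against wild-type, edgeR on summed counts) of each ancient L1 element name, inside (n = 89) and outside (n = 81) gene spans. Orange points passed at an adjusted p under 0.1, grey points did not, and the black bar is the median, 0.05 inside and 0.24 outside.

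The sub-groups of ancient L1 differed little between the genotypes, and no test was made over them. L1M names with a number (65567 loci) held 26.4% of the reads, L1ME 21.2%, L1MC 15.5%, L1MB 15.4%, L1MA 11.8%, L1MD 6.86%, HAL1 2.82% and L1P, with 310 loci, 0.0939%. As percent of all reads, the genotype groups overlapped in each of the 8. In TMM-scaled CPM the mutant libraries lay above the wild-type libraries for L1M names with a number, L1MA, L1MC, L1MD and L1ME, with log2 ratios of the means between 0.06 and 0.12. For HAL1, L1MB and L1P the groups overlapped, with log2 ratios of 0.07, 0.05 and 0.05. Density was greatest for L1ME, at 6.06 reads per kb per library, and lowest for L1MA, at 3.17. L1MA had 5 of the 20 lower loci, among 4298 tested, and L1MB 4, among 5717 tested. Over all classes 0.0628% of tested loci were lower, and such small counts are not read as a difference.

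Inside gene spans, the 6 most read ancient L1 loci lay in untranslated parts of messenger RNAs, and of these the Hao2 locus passed and the other 5 did not. An L1M4 at chrX:136246671-136246871, nearly all in the untranslated part of Tceal9 (Wbp5 in the RefSeq table), a small protein related to a transcription elongation factor, held 10761, 11430 and 12143 reads in wild-type and 12640, 11243, 12958 and 13207 in mutant libraries. In CPM, 2885 ± 524 (SD, n = 3) stood against 3716 ± 321 (SD, n = 4), and although the groups just failed to overlap the adjusted p was 0.718. It passed when libraries were scaled by size alone or wild-type replicate 2 was left out. Another was an L1MD at chrX:136170474-136170675 in Tceal8, a gene of the same family, at 495 CPM ± 95.5 (SD, n = 3) and 618 CPM ± 28.4 (SD, n = 4). Loci in the untranslated parts of Trim35 (L1ME3A), Alyref (L1MCa) and Thoc2 (L1MB7), the last a pair of genes for messenger RNA export, had log2 fold changes of 0.27, 0.21 and 0.25, each with an adjusted p of 0.977.

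Outside gene spans the most read was an L1MEg at chr6:71124980-71125047, 68 bases outside any GENCODE gene, with 2126, 2505 and 2229 reads in wild-type and 1961, 2027, 1966 and 2434 in mutant libraries. Its groups overlapped, with a log2 fold change of 0.10. An L1ME4c at chr7:6705068-6705144 and an L1ME4a at chr7:6703974-6704050 lie in the untranslated part of Peg3, an imprinted zinc-finger gene expressed from the paternal allele, beyond its RefSeq span. They stood at 453 CPM ± 31.4 and 498 CPM ± 41.3 and at 266 CPM ± 39.5 and 302 CPM ± 20.4 (SD, n = 3 and 4). An L1M2 at chr13:28258136-28258586 and an L1M6B at chr6:42670291-42670385, at the edge of Tcaf1, had log2 fold changes of 0.12 and 0.25, with overlapping groups. Loci called outside by the RefSeq spans can thus be parts of longer transcripts.

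At 2 loci of at least 100 reads in some library, another library held at most 1, in a pattern that cut across genotype. The L1MEg of Gm26825 shown above, at chr5:5781495-5781571, held 2982, 0 and 1 reads in wild-type and 2470, 0, 2 and 1 in mutant libraries. Wild-type replicate 1 and mutant replicate 1 alone carried it, and its fitted log2 fold change was -0.28 with all libraries, 10.03 without wild-type replicate 1 and -9.27 without mutant replicate 1. An L1MEd at chr9:111394880-111395011 in the untranslated part of Trank1 held 0, 89 and 118 reads in wild-type and 41, 80, 90 and 110 in mutant libraries. There wild-type replicate 1 was at 0 and mutant replicate 1 the lowest of its group.

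No host gene of an ancient L1 locus passed the test on FPKM. Of the 24739 genes measured, 10712 held at least 1 ancient L1 locus in their span, up to 175 in a single gene, and 7418 of these were tested. By limma at an adjusted p under 0.05, 0 passed, against 0.00715% of all genes tested, and 1205 (16.2%) had an unadjusted p under 0.05, against 17.0% of all genes. Without the library labelled wild-type replicate 3, 390 of 7437 hosts passed (5.24%), against 5.15% of all genes. The genes whose spans held the most ancient L1 reads were Wbp5, Tceal8, Kcnq1 with its antisense RNA Kcnq1ot1, C230091D08Rik and Chmp3, a subunit of the ESCRT-III membrane complex. Wbp5 was at 797 FPKM ± 98.6 (SD, n = 3) and 937 FPKM ± 29.3 (SD, n = 4), and Chmp3 at 69.0 ± 1.54 and 65.9 ± 2.55 FPKM. Kcnq1, at 0.202 FPKM in both groups, shares its loci with Kcnq1ot1, at 1.66 and 1.58 FPKM, and the counts do not part them.

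The fold change of a locus followed that of its host only loosely. Over 28503 pairs of a tested locus and its tested host, Spearman's rho was 0.14, and 54.9% had the same sign. With at least 10 reads per library, rho was 0.22 (n = 3940) and the same sign was seen in 57.7%. It was 0.38 for such loci in exons (n = 582) and 0.20 for those in introns (n = 3349). These are descriptions across loci, which share libraries, hosts and, in exons, the reads themselves.

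Glis3 itself holds 35 ancient L1 loci in its long introns, of which 28 were tested. Log2 fold changes were negative for 24 of them, with a median of -0.72, and none passed. Summed over the loci, 40.9, 38.9 and 28.9 CPM were read in wild-type and 23.4, 23.2, 23.1 and 15.9 CPM in mutant libraries. The groups did not overlap, and wild-type replicate 3 was the lowest wild-type library, above all mutants. This differs from Glis3 FPKM, where wild-type replicate 3 lay within the mutant range.

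The calls of ancient L1 loci are set here beside those of other LINE classes. Among the older L1 families of rodents, 7 of 40665 tested loci were higher (0.0172%) and 45 lower (0.111%). The L1Md families had 1 higher and 3 lower of 8874 (0.0113% and 0.0338%), and L2, a still older LINE, 4 and 4 of 13620 (0.0294% each). The shares of ancient L1, given above, were below those of the rodent L1 families in both directions, while the share of lower loci was above those of L1Md and L2. Median log2 fold changes over tested loci were 0.03 for ancient L1, 0.02 for the rodent L1 families, 0.01 for L2 and 0.19 for L1Md. Whether these shares differ was not tested.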

How the data were processed

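RNA-Seq data of 7 whole-testis libraries (E14.5, wild-type n = 3, Glis3 mutant n = 4, 1 pair of testes each) were used, grouped by their labels. The authors aligned quality-filtered reads to mm10 with TopHat2 2.0.12 without strand, kept uniquely mapped reads and counted them per RepeatMasker element with HTSeq-count, and the deposited counts are not normalized. The second table holds FPKM per RefSeq gene, which the authors made with the Cuffquant and Cuffnorm workflow (the submitters' notes name Cuffdiff 2.1.1). Every sample column was used. Depth was 3454317 to 4670830 counted reads per library, which limits most loci to a few reads.

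Counts per locus were tested with edgeR 4.0.16 (glmQLFit, glmQLFTest, TMM, R 4.3.3), two-sided, over all loci of every class with a mean of 1 read or more, at a Benjamini-Hochberg adjusted p under 0.1. Sums per element name, whole or split inside and outside gene spans (bedtools 2.31.1, 1 base of overlap), were tested in the same way at a mean of 10 reads or more. Genes were tested with limma 3.58.1 on log2(FPKM + 0.5) at a mean of 0.5 FPKM or more and an adjusted p under 0.05, and their fold changes are on that scale, which understates the change of low genes. CPM are reads scaled to the TMM effective library size. Floors are 3 reads over a group and cover counting error only. Exon, intron and untranslated parts came from GENCODE M21, each locus taking the class with the most bases, and promoter windows from RefSeq.

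Loci were named where they passed in groups that did not overlap (up to 6 per direction, filled by unadjusted p) or were among the 6 most read inside or outside spans, names where they were among the 8 most read or passed, and genes as hosts of named loci or among the 6 with the most reads. Loci that passed and are not named are given in counts and in the heat map, and 1 of them is not reported here. Other loci were named after their values were seen. The members and lists were chosen with earlier results of these data known. Alternatives were other scalings (DESeq2's size factors, library size only), DESeq2 1.42.0, other filters, other spans, other pseudocounts, a replicate block and each library left out. Scripts were tested on simulated data.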

Additional observations from a re-analysis of the deposited data

Results flagged for a closer look

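In the groups of 4 mutant libraries, 3 values had 1 library so far from the rest that its gap, as a share of the group's whole range, was past the 95% limit of Dixon's test for 4 values. Chance alone does so in about 1 group in 20. The ratio was 0.999 for the L1MEg locus in Gm26825, where mutant replicate 1 was at 704 CPM and the other mutant libraries at 0 to 0.634 CPM. It was 0.839 for L1MEg summed over all its loci, where mutant replicate 1 was at 2646 CPM and the others between 2000 and 2104 CPM, a sum that includes the Gm26825 locus. For the percent of ancient L1 reads inside gene spans the ratio was 0.88, since mutant replicate 2, at 86.6%, stood above the others, at 84.8% to 85.0%. That library was also the one with 0.072% of its reads in the MMVL30-int locus, against 2.06% to 7.02% in the other mutant libraries, and the part of that locus in the value was not tested.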

How the results depend on the processing

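Counts of ancient L1 loci called higher and lower (4 and 20) became 2 and 15 with no filter on low counts, 0 and 3 with loci of at least 10 reads, 1 and 2 with DESeq2, 5 and 20 with library size only, 3 and 16 at an adjusted p under 0.05, and stayed at 4 and 20 with DESeq2's size factors. At 10 reads or more the lower share was 0.0672%, against 0.0279% over all classes. With DESeq2 the shares were 0.00294% and 0.00588%, against 0.000861% and 0.00237%. In both settings, on few calls, these shares were above those of the whole table. With no filter they were 0.00195% and 0.0146%, against 0.00388% and 0.0151%. Leaving out 1 library gave 3 to 8 higher and 6 to 34 lower. The shares ran from 0.00873% to 0.0234% and from 0.0174% to 0.0995%, against 0.00914% to 0.0261% and 0.0142% to 0.119%. The median log2 fold change of ancient L1 loci, 0.027, was -0.01 with library size only, 0.163 with no filter and -0.025 to 0.081 with 1 library left out. Names called higher were 0 except without wild-type replicate 2, where they were 20, a range of 0 to 20, and names called lower were 0 throughout. The share over names of all classes was not taken in that setting, so the 20 are not read as particular to ancient L1. The 12 name sums by place became 0 with loci of at least 1 read, 2 with library size only, 2 with DESeq2, 8 with DESeq2's size factors, 6 with loci wholly within a span, 22 with GENCODE spans, 0 at an adjusted p under 0.05 and 0 to 33 with 1 library left out. The difference in the share of ancient L1 reads inside spans, -1.08 percentage points, was -0.188 over tested loci alone and -1.52 to -0.818 with 1 library left out. Host genes that passed were 3 with no filter on FPKM, G530011O06Rik among them, and 0 to 390 with 1 library left out. The fold change of the Gm26825 L1MEg ran from -9.27 to 10.03 with 1 library left out. The cause of these changes was not tested, beyond the number of loci or libraries each alternative leaves.

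With the replicate number as a replicate block, 5 loci were higher and 10 lower, and 0 name sums by place and 0 host genes passed. The shares of loci were 0.0147% and 0.0294%, against 0.0148% and 0.0318% over all classes. The deviations of same-numbered wild-type and mutant libraries from their group means correlated at 0.03, -0.08 and 0.02, and not every library correlated best with its own number. With 2 residual degrees of freedom and numbers that do not pair the libraries, these counts are not read as weaker effects. The 24 calls and those of the block shared 14 loci.

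The median tested locus had 2.71 reads per library, and the size of change that can be seen at single loci at this depth was not tested.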
